A study of Mus musculus with 5 samples.

Results

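Macrophages are phagocytes that live in nearly every tissue and clear dead cells and debris. They depend on signaling through the receptor encoded by *Csf1r*, and many of them make C1q, the first component of the classical complement pathway, from the adjacent genes *C1qa*, *C1qb* and *C1qc*. Tissue macrophages are seeded before birth and are joined by cells derived from blood monocytes, and a share of them present antigen on MHC class II molecules. The cells described here are those of the mouse penis at postnatal day 6 (P6), when the baculum begins to form, that carried macrophage genes. A cell was taken when it held at least 1 UMI (a tagged, counted RNA molecule) of at least 4 of 8 genes, namely *C1qa*, *C1qb*, *C1qc*, *Csf1r*, *Adgre1* (the antigen F4/80), *Mrc1* (the mannose receptor) and the signaling adaptors *Tyrobp* and *Fcer1g*. This gate was passed by 412 of the 19633 penis cells kept after filtering, out of 69434 kept cells in all 5 libraries, which held 84440 barcodes.

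The study compared the developing baculum with developing limb bones. It sequenced 3 libraries of penis from male mice at P6, with the prepuce removed, and 1 library each of forelimb and hindlimb from mouse embryos at embryonic day 15. The labels give C57BL/6N as the genotype of all 5 samples, whereas the study's methods name C57BL/6J for its mice. The animals carried no engineered allele and received no treatment. The labels did not tie the penis libraries to the 3 mice or to their litters, nor show whether both limb libraries came from the same embryos, so a p-value below measures the spread between these libraries, which may in part be technical. Penis and limb also differed in age, so tissue and age cannot be told apart in any comparison between them.

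Kept cells held 51621930 to 68581547 UMIs per penis library, 151802351 in forelimb and 158115050 in hindlimb. The gated cells had a median of 8386 to 9067.5 UMIs per cell in the penis libraries, against 6632 (forelimb) and 7321.5 (hindlimb). No barcode of a gated penis cell recurred among the gated cells of another library, while over all barcodes each pair of libraries shared 20 to 203.

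Gated cells were a smaller part of the kept cells in penis than in limb, where the filters on cells differed. They made up 2.23% of kept cells in the first penis library (152 of 6806), 2.14% in the second (152 of 7107) and 1.89% in the third (108 of 5720), against 3.1% in the forelimb (802 of 25865) and 3.04% in the hindlimb (728 of 23936). The mean was 2.09% ± 0.178 (SD, n = 3) for penis and 3.07% ± 0.0419 (SD, n = 2) for limb, and all penis libraries lay below both limb libraries. An exact permutation test of the library shares (two-sided) gave p = 0.1, the smallest value that 3 libraries against 2 can give. The order was the same with every cell thinned to 2000 UMIs before gating, at 1.16% ± 0.151 for penis and 2.79% ± 0.106 for limb.

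The gate was checked against markers it did not use. Macrophage genes outside the gate, such as *Cd68* (a lysosomal glycoprotein), *Lyz2* (lysozyme), *Spi1* (the transcription factor PU.1) and *Aif1*, formed a list of 14 genes, all detected. Together they made up 11681, 9690 and 10853 CPM (UMIs scaled to a common library total) in the gated cells of the 3 penis libraries, against 304, 275 and 334 CPM in the other penis cells. Since the gate chose the cells, these and the following ratios are a description and were not tested. The genes that led the gated cells over all other penis cells, ranked by the lowest ratio in any library, were *Ms4a7*, *Ccl12*, *Ccl24*, *Fcrls*, *Trem2*, *Ms4a6d*, *Clec4n*, *Fcgr1*, *C3ar1* and *Aif1*. *Ms4a7*, a membrane protein gene of myeloid cells, stood at 483, 524 and 463 CPM in gated cells and at 0.327, 0.404 and 0.415 CPM in other cells, and *Trem2*, a receptor for lipids, at 258, 246 and 230 CPM against 0.551, 0.598 and 0.514 CPM.

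At the edge of the gate, 177 penis cells held exactly 4 of the 8 genes and were taken, and 201 held 3 and were not. *Adgre1* was found in 72.9% to 88.1% of the cells with 4 genes, depending on the library, and in 10.7% to 12.5% of the cells with 3. The 14 macrophage markers outside the gate summed to 12861 to 13787 CPM in the cells with 4 genes and to 6755 to 10920 CPM in the cells with 3, while 10 mesenchyme genes summed to 3091 to 4230 and 5541 to 12505 CPM, respectively.

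The label of macrophages did not cover the gated penis cells evenly, because they fell into 2 patterns. All 8 gate genes were found in 144 of the 412 cells (35.0%), whereas 137 cells (33.3%) held exactly *Csf1r*, *Adgre1*, *Tyrobp* and *Fcer1g*, with no UMI of any C1q gene or of *Mrc1*. In limb, 893 of 1530 gated cells (58.4%) held all 8 genes and 77 (5.03%) held those 4 alone. Few penis cells lay between, with 40 at 5 genes, 29 at 6 and 22 at 7.

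**Figure D1:**
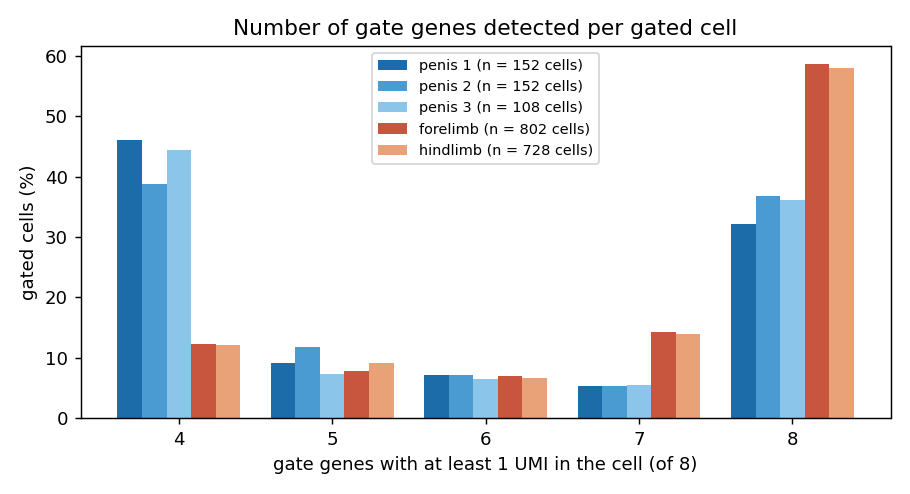
Share of gated cells (%, vertical axis) by the number of gate genes with at least 1 UMI (horizontal axis), with a bar for each library. Within the gate, the cells of each penis library are most often at 4 genes or at 8, whereas both limb libraries have most of their cells at 8. Cells below the gate are not drawn, and 73, 56 and 72 penis cells held 3 genes beside 70, 59 and 48 with 4.

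The gated cells were therefore described as those with a UMI of *C1qa*, *C1qb* or *C1qc* (the C1q set, 263 penis cells) and those without one (the C1q-negative set, 149 penis cells, or 36.2% of the gate). This division was made after the data were examined, and it rests on gate genes. The C1q-negative share was 37.5% (57 of 152), 33.6% (51 of 152) and 38.0% (41 of 108) in the penis libraries. Forelimb had 6.23% (50 of 802) and hindlimb 7.55% (55 of 728), and the groups did not overlap. With cells thinned to 2000 UMIs the shares were 47.4%, 44.4% and 48.0% in penis against 10.4% and 12.5% in limb. Of all kept cells, C1q-negative gated cells were 0.757% ± 0.0695 in penis and 0.212% ± 0.0258 in limb, so their order was the reverse of that of the whole gate, and C1q cells were 1.33% ± 0.138 in penis and 2.86% ± 0.0677 in limb. As the division uses gate genes, these shares were not tested.

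C1q levels separated most of the cells. Of the 412 penis cells, 215 held 5 or more C1q UMIs, 48 held 1 to 4 and 149 held none. The median over the C1q set was 41, 60 and 60 UMIs per cell in the 3 penis libraries. A C1q UMI was also found in 1.71% to 2.37% of penis cells outside the gate, and the part of free RNA in cells with few C1q UMIs was not tested. *C1qa* (mm10, chr4:136895916-136898844), *C1qb* (chr4:136880126-136886200) and *C1qc* (chr4:136889801-136892936) lie next to each other.

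The cells of the C1q set carried genes of tissue macrophages. *Pf4*, a chemokine gene, was at 4020, 3542 and 3510 CPM in the C1q set of the 3 penis libraries and at 14.9, 2.23 and 3.18 CPM in the C1q-negative set. *Ms4a7* was at 725, 744 and 671 CPM against 4.26, 11.2 and 9.53 CPM. *Slc40a1*, which encodes the iron exporter ferroportin, was at 352, 168 and 438 CPM against 0, 2.23 and 3.18 CPM. Other genes that led the C1q set were the monocyte-attracting chemokines *Ccl7*, *Ccl12* and *Ccl2*, the scavenger receptor *Stab1*, the bridging ligand *Gas6*, the endocytic adaptor *Dab2* and the transcription factor *Maf*. *Lyve1*, a hyaluronan receptor, and the folate receptor gene *Folr2* had no UMI in the C1q-negative set of any library.

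The 11 genes of the list for blood monocytes summed to 6577, 6566 and 6600 CPM in the C1q-negative cells of the 3 penis libraries. In the C1q cells they summed to 654, 616 and 591 CPM. Not every gene of the list was well detected, as *Cd177* and *Chil3* had only 2 UMIs each in the C1q-negative set. *Plac8*, a gene of monocytes and other myeloid cells, was at 3077, 3368 and 3184 CPM in the C1q-negative set and at 125, 125 and 43.8 CPM in the C1q set, and it was found in 87.7%, 90.2% and 95.1% of C1q-negative cells. *Ly6c2*, which encodes the monocyte surface antigen Ly6C, was at 419, 353 and 391 CPM against 12.9, 6.70 and 2.92 CPM. *Hp* (haptoglobin) was at 413, 438 and 416 CPM against 24.8, 3.83 and 7.29 CPM. *Ccr2*, the receptor that draws monocytes out of the bone marrow, was at 652, 436 and 505 CPM against 141, 83.2 and 121 CPM. Beside these stood *Treml4*, *Adgre4*, *Ace* (angiotensin-converting enzyme) and *Itgal* (the integrin LFA-1 subunit), genes that are known from patrolling monocytes. *Itgal* was at 515, 623 and 753 CPM in the C1q-negative set and at 41.0, 26.8 and 32.1 CPM in the C1q set. The alarmin gene *S100a8* also led the C1q-negative set, at 375, 337 and 137 CPM against 2.16, 0 and 0 CPM. The 10 genes of the neutrophil list summed to 690, 677 and 273 CPM in the C1q-negative set and to 41.0, 20.1 and 21.9 CPM in the C1q set, although *Retnlg* and *Ly6g* had no UMI in any gated penis cell. *Csf1r* was at 670, 581 and 664 CPM in the C1q set and 566, 518 and 597 CPM in the C1q-negative set, but as a gate gene it had to be found in nearly every cell without C1q. These levels were not tested, as the gate and the division by C1q made them part of the choice.

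**Figure D2:**
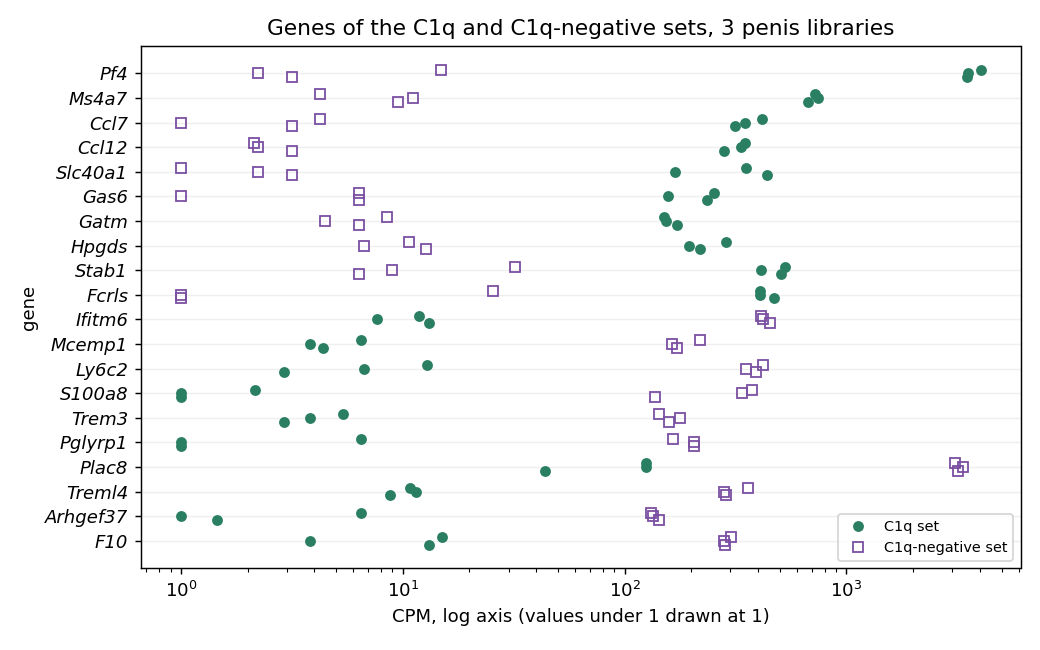
Level (CPM, log axis, values under 1 drawn at 1) of the 10 genes with the largest ratio in each direction between the C1q set (filled circles) and the C1q-negative set (open squares), with a point for each of the 3 penis libraries. The genes were chosen for this difference, with *Pf4* at 3510 to 4020 CPM in the C1q set and *Plac8* at 3077 to 3368 CPM in the C1q-negative set.

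Within the gated penis cells, a few genes had counts that varied widely from cell to cell. With each cell at 2000 UMIs, the ratio of variance to mean had a median of 1.08 over 1409 genes, and among the 12 genes with the highest ratio it reached, in the library where it was lowest, 17.3 for *Cd74* (the MHC class II invariant chain), 16.6 for *Apoe* (apolipoprotein E), 12.4 for *H2-Eb1* and 12 for *H2-Ab1* (MHC class II chains), 12 for *Lyz2* and 11.4 for *Pf4*. *Col3a1*, a fibroblast collagen gene, also stood at 9.37. It had a UMI in 32.7% to 38.3% of the thinned cells, and 100 of the 412 gated penis barcodes (24.3%) and 296 of the 1530 limb barcodes (19.3%) held at least 2 UMIs of at least 3 marker genes of 1 other cell type. Counts of genes without such mixed barcodes are given with the comparison of the tissues.

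Penis and limb gated cells were compared by summing UMIs per library and testing with edgeR's quasi-likelihood test, 3 penis against 2 limb libraries. A filter on low counts came first, and a gene could pass it through 1 tissue alone. Such a gene could hardly come out higher in the other tissue, which limits the counts and p-values below. The gated cells also differed in their median mitochondrial share, 2.03% to 2.17% in penis against 4.52% and 4.31% in limb. Cells were kept at up to 5% in penis and up to 10% in limb, so the filter bears on this difference. Its part in the comparison was not tested. With each cell thinned to the same depth the counts below were 441 higher and 191 lower of 5107 genes tested. Of 10939 genes tested, 785 (7.18%) were higher and 367 (3.35%) were lower in penis at an adjusted p under 0.01 and a log2 fold-change past 1. Without the mixed barcodes the counts were 750 and 359 of 8945 genes tested. The sets differ in makeup between the tissues, so the C1q set was also tested alone, where 445 of 10040 genes (4.43%) were higher and 263 (2.62%) lower. Of the 785 genes higher in the whole gate, 653 could be tested in the C1q set and 359 (45.7% of the 785) were also higher there. Of the 367 lower genes, 339 could be tested and 197 (53.7% of the 367) were also lower. In the C1q-negative set 386 of 6741 genes (5.73%) were higher and 204 (3.03%) lower. Forelimb gave only 50 cells to this set and hindlimb 55. Mast cell genes there summed to 3429 CPM in forelimb and 173 CPM in hindlimb, against 15.9 to 100 CPM in penis. Red blood cell genes summed to 9533 and 1185 CPM in limb, against 222 to 339 CPM in penis. The part of these cell types in the counts was not tested. Limb had only 2 libraries, and the counts depended on both. Without the forelimb library 431 genes were higher and 182 lower in the whole gate and 131 and 91 in the C1q set. Without the hindlimb library these were 391 and 197, and 94 and 97.

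Genes of MHC class II were higher in penis. Of the 8 list genes that could be tested, 7 were higher and none lower, with a median log2 fold-change of 3.48 beside 0.02 over all genes tested (7.18% higher), and in the C1q set 6 of 6 were higher (median 3.64, beside 4.43% of all genes). The filter on low counts let genes in through penis alone, as with *Ciita* and *H2-DMb1*. Such genes could hardly come out lower, so the counts are a description. *H2-Aa*, *H2-Ab1* and *H2-Eb1* encode the chains that present peptides to helper T cells. *H2-Aa* was at 620, 275 and 459 CPM in the penis libraries and at 27.4 and 23.4 CPM in the limb libraries, with a log2 fold-change of 4.18 ± 0.30 (SE, adjusted p = 4.58e-06). *H2-Ab1* was at 574, 299 and 435 CPM against 24.2 and 18.8 CPM, and *H2-Eb1* at 531, 252 and 450 CPM against 21.9 and 16 CPM. The lowest penis library lay above both limb libraries for all 3 genes. *H2-DMb1*, which helps to load peptides, rose by 3.54 ± 0.32, and *Ciita*, the transactivator of these genes, was at 14.3, 7.37 and 5.00 CPM against 0.829 and 0.860 CPM. In the cells outside the gate *H2-Aa* stood at 20.6, 13.7 and 10.6 CPM in penis and 6.59 and 5.52 CPM in limb.

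The promoters of these genes are known to share an X box and a Y box, bound by factors that recruit CIITA, and are shown because this group made up 4 of the 12 largest increases under the rule for named genes. That rule asked for 4 times the level of other cells in penis only, and in limb the lowest such ratio was 3.04 for *H2-Eb1*, 3.16 for *H2-Ab1*, 3.38 for *H2-DMb1* and 4.15 for *H2-Aa*. RefSeq promoters (GRCm38.p6) matched 7 of the 10 list genes. Shown are 3 of the genes higher in penis whose promoters held a match, while both promoters listed for *H2-DMa*, which was also higher, held none of the motifs searched. The lines give the 250 bases before the start, 5′ to 3′ on the gene's strand, for *H2-Aa* (chr17:34287824-34288073, minus strand), *H2-Eb1* (chr17:34305617-34305866, plus strand) and *H2-DMb1* (chr17:34152941-34153190, plus strand), with matches to TGATTGG (a Y box core), GCAACT (from the X box) or TGACGTCA in capitals, all searched on both strands.
H2-Aa: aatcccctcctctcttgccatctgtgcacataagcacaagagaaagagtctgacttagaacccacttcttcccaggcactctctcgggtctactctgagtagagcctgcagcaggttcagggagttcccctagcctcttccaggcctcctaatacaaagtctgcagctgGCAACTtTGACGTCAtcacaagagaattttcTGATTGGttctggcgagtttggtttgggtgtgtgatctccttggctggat
H2-Eb1: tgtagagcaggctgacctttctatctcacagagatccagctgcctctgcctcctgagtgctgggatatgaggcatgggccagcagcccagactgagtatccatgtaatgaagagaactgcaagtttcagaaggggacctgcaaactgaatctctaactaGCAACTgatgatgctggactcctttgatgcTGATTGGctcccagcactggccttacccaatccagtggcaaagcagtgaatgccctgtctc
H2-DMb1: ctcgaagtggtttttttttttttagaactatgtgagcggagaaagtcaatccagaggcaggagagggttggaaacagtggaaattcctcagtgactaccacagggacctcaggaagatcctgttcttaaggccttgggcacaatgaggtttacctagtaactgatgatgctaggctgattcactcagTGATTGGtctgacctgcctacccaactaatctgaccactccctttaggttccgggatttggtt
TGATTGG lies at -50 to -44 from the start in *H2-Aa*, at -61 to -55 in *H2-Eb1* and at -63 to -57 in *H2-DMb1*, and GCAACT lies further from the start in the first 2, at -81 to -76 and -91 to -86. *H2-Aa* also holds TGACGTCA at -74 to -67. Of all 32851 promoters in the table, 7.23% held TGATTGG, 9.01% held GCAACT, 0.679% held both and 1.55% held TGACGTCA. The matches are letters in a window and say nothing of binding in these cells.

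The MHC class II difference rested on few cells. Cells with a UMI of at least 3 of *H2-Aa*, *H2-Ab1*, *H2-Eb1* and *Cd74* numbered 15, 12 and 9 in the penis libraries, 36 of 412 in all (8.74%), and 10 in each limb library, 20 of 1530 in all (1.31%). They held 96.8%, 92.8% and 97.0% of the MHC class II UMIs of the gated penis cells, and 72.4% and 67.6% in forelimb and hindlimb. Outside them *H2-Aa* was at 4.84, 2.91 and 0 CPM in penis and at 0.679 and 0.350 CPM in limb. Inside them it was at 5489, 3399 and 5077 CPM in penis and 1160 and 1470 CPM in limb. Both the share of these cells and the level within them were therefore higher in every penis library than in either limb library, although the cells were chosen by these genes and the levels were not tested.

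The MHC class II cells belonged to both sets. Of the 36 in penis, 22 were C1q cells and 14 were C1q-negative. Genes of the dendritic cell list summed to 833, 548 and 996 CPM in the C1q-negative ones and to 225, 103 and 253 CPM in the C1q ones, beside 98.3, 88.8 and 94.5 CPM in the other gated cells. *Cd209a*, a lectin gene of monocyte-derived dendritic cells, was at 629, 267 and 701 CPM in the C1q-negative ones and at 10.7, 41.4 and 94.8 CPM in the C1q ones. With 3 to 9 cells per library in each class, these levels carry wide counting error.

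**Figure D3:**
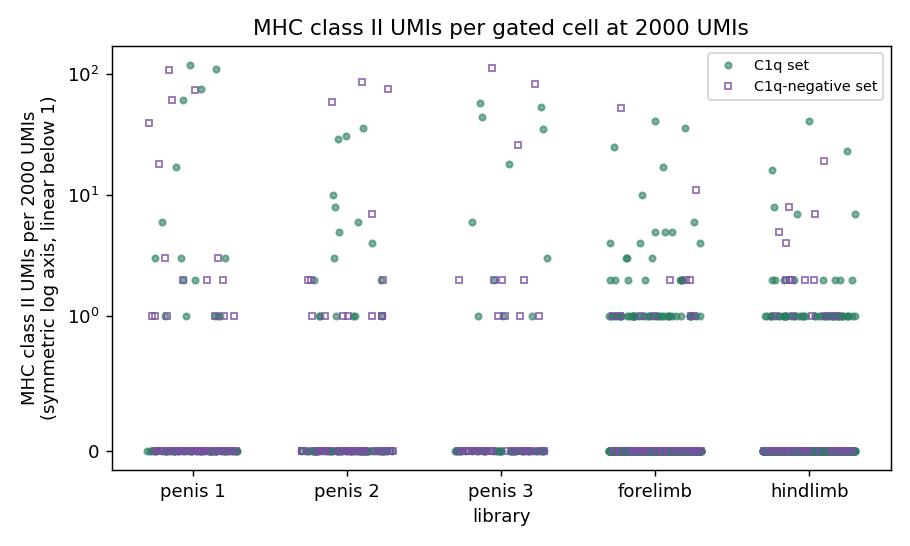
UMIs of *H2-Aa*, *H2-Ab1*, *H2-Eb1* and *Cd74* together (vertical axis, symmetric log scale that is linear below 1) in each gated cell thinned to 2000 UMIs, by library, for C1q cells (filled circles) and C1q-negative cells (open squares). The median is 0 in every library, and the upper values reach 118, 86 and 112 UMIs in penis and 52 and 41 in limb.

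MHC class I genes, which present peptides from inside the cell, were also higher, 7 of 10 in the whole gate (median 1.16, beside 7.18% of all genes) and 4 of 10 in the C1q set (median 0.93, beside 4.43%). *H2-K1* was at 613, 564 and 600 CPM in penis and 204 and 191 CPM in limb, with a log2 fold-change of 1.62 ± 0.09 (adjusted p = 1.4e-06). Unlike MHC class II it was widespread, with a UMI in 78.3% to 88.0% of gated penis cells. Its log2 fold-change in cells outside the gate was 1.03.

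Monocyte genes were higher over the whole gate, while 0 passed the limits among C1q cells. In the whole gate 7 of 9 tested genes were higher (*Ccr2*, *Ly6c2*, *Plac8*, *Fn1*, *Hp*, *Msrb1* and *Ifitm6*, with a median of 2.03, beside 7.18% of all genes), in the C1q set 0 of 7 by edgeR's quasi-likelihood test and by DESeq2 (median 0.21, with 3 higher at an unadjusted p under 0.05, beside 4.43%), and in the C1q-negative set 5 of 9 (median 1.32, beside 5.73%). *Plac8* was at 1117, 1098 and 1032 CPM in penis against 153 and 185 CPM in limb over all gated cells, where its log2 fold-change was 2.71 ± 0.12 (adjusted p = 4.41e-07). In the C1q set the values were 125, 125 and 43.8 CPM against 91.7 and 106 CPM, which overlap, and the log2 fold-change was 0.05 (adjusted p = 0.917). *Fn1* is also a product of fibroblasts. All 11 genes of the list together summed to 654, 616 and 591 CPM in the C1q cells of penis and 444 and 478 CPM in those of limb. These sums did not overlap and were not tested.

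Of the 12 largest increases under the rule for named genes, which also had to lie at least 4 times above the other cells, 4 were tested and did not pass in the C1q set and 2 were too low there to be tested. *Ear2*, a ribonuclease gene of a family with near-identical copies, so that its counts are uncertain, was at 70.8, 48.2 and 65.0 CPM in penis and 0.663 and 0.688 CPM in limb (log2 fold-change 6.45 ± 0.30). Its level was 207, 154 and 172 CPM in the C1q-negative penis cells, beside 4.48 and 5.31 CPM in the C1q-negative cells of limb. In the C1q cells it was at 2.16, 2.87 and 16 CPM in penis and 0.358 and 0.368 CPM in limb, too low to be tested. *Treml4*, a receptor gene, rose by 4.76 ± 0.22 and *Adgre4*, a relative of F4/80, by 3.52 ± 0.19, while in the C1q set they gave 1.56 (adjusted p = 0.0238) and 0.48 (adjusted p = 0.477). *Pglyrp1* (a peptidoglycan-binding protein), *Rap1gap2* (a regulator of the GTPase Rap1) and *F10* (coagulation factor X) also rose over the whole gate. In the C1q set *Pglyrp1* was not tested, and *Rap1gap2* (log2 fold-change 1.49, adjusted p = 0.0208) and *F10* (2.05, adjusted p = 0.0202) were past the fold limit but not the limit on p. *Fgr*, a Src family kinase of myeloid cells, was higher in both, by 3.97 ± 0.19 in the whole gate and 2.22 in the C1q set. Within the C1q-negative set, the genes that did not pass or were not tested in the C1q set were also higher in penis. Their log2 fold-changes there were 5.15 for *Ear2*, 4.99 for *Treml4*, 3.84 for *Adgre4*, 3.74 for *Pglyrp1*, 3.13 for *Rap1gap2* and 1.92 for *F10*. These values are a description, as the genes had been picked for the same difference over the whole gate. The filter on low counts let *Ear2*, *Treml4*, *Adgre4* and *Pglyrp1* into this fit through penis alone, so they could hardly come out lower. All gated cells of each limb library held only 4 UMIs of *Ear2*.

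*Marco*, a scavenger receptor gene, was higher in penis (log2 fold-change 4.71 ± 1.15, adjusted p = 0.00945), with many of its UMIs in single cells. It was at 22.2, 21.4 and 281 CPM in the penis libraries and 0.498 and 7.23 CPM in the limb libraries. In the third penis library 1 cell held 247 of its 281 UMIs, and in the hindlimb 1 cell held 38 of 42. Without the highest cell of each library it stood at 13.6, 14.1 and 34.0 CPM in penis and 0.332 and 0.688 CPM in limb, so the groups did not overlap either way.

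**Figure D4:**
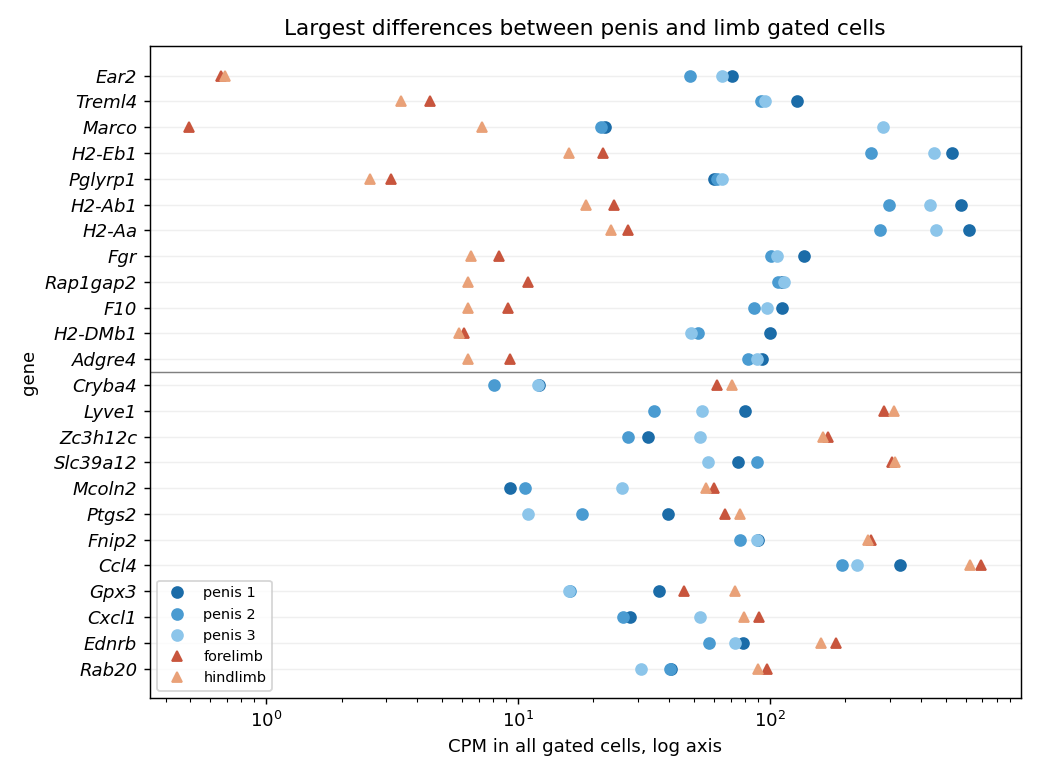
Level (CPM over all gated cells, log axis) of the 12 genes with the largest increase and the 12 with the largest decrease in penis that met the rule for named genes, with a point for each library (circles penis, triangles limb). The rule asked for no overlap between penis and limb, and *Marco* has the widest spread among the penis libraries.

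Some genes were higher in the C1q cells themselves. Of the resident macrophage list, *Cd163*, *Clec10a*, *Mgl2*, *Igf1* and *Cd209f* were higher and *Lyve1* was lower in the C1q set, out of 16 tested (median 0.50), beside 4.43% higher and 2.62% lower of all genes. *Cd163*, the haemoglobin scavenger receptor, was at 70.1, 31.6 and 55.4 CPM in the C1q cells of penis and 17 and 14 CPM in those of limb (log2 fold-change 1.73, adjusted p = 0.00137). *Mgl2*, a lectin that binds galactose sugars, was at 115, 77.5 and 83.2 CPM against 10.6 and 7.18 CPM (3.37, adjusted p = 2.04e-05). Its limb levels alone would not have passed the filter on low counts, so it could hardly come out lower. *Igf1*, a growth factor gene, was at 436, 528 and 514 CPM against 229 and 243 CPM (1.07, adjusted p = 0.000235), but it was higher still in the penis cells outside the gate, at 722, 738 and 773 CPM. *Cd209f* had no UMI in either limb library and was found in at most 2.99% of the C1q cells of a penis library, so no fold is given.

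*Lyve1* fell in the penis cells. It was at 80.1, 34.8 and 54.0 CPM in all gated cells of the penis libraries and at 284 and 313 CPM in the limb libraries, a fall by 2.37 ± 0.20 on the log2 scale (adjusted p = 1.59e-05). In the C1q set it was at 121, 49.7 and 78.8 CPM against 307 and 334 CPM and fell by 1.95 (adjusted p = 0.000218). A UMI of *Lyve1* was found in 16.8%, 10.9% and 8.96% of C1q cells in penis and in 36.3% and 35.5% in limb. *Folr2*, often found in the same macrophages, did not pass in the C1q set, at 117, 73.6 and 77.3 CPM against 105 and 89.2 CPM.

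Of 11 genes of the iron and haem list tested in the C1q set, 3 were higher (*Slc40a1*, *Cp* and *Hpgd*), beside 4.43% of all genes. *Hpgd*, although on that list, encodes an enzyme that breaks down prostaglandins, not one of iron or haem. Most of the 19 transcription factors tested did not pass. *Spic*, a factor of iron-recycling macrophages, was at 32.3, 19.1 and 21.9 CPM in the C1q cells of penis and 5.73 and 2.58 CPM in those of limb (log2 fold-change 2.55, adjusted p = 0.00135). It passed the filter on low counts through penis alone and could hardly come out lower, so these values are a description. The iron exporter *Slc40a1* rose by 1.37 (adjusted p = 0.00431), with 352, 168 and 438 CPM against 121 and 121 CPM, and in the third penis library a single cell held 37.5% of its UMIs in gated cells. *Cebpb* was lower in the C1q cells by 1.14 on the log2 scale (adjusted p = 7.98e-05), at 236, 215 and 223 CPM against 523 and 468 CPM, whereas over the whole gate it was at 551, 491 and 488 CPM against 545 and 503 CPM, which overlap.

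Some chemokine genes were higher and some lower. *Ccl4*, an attractant of lymphocytes and monocytes, was at 330, 194 and 222 CPM in penis and 691 and 624 CPM in limb, a fall by 1.36 ± 0.17 on the log2 scale (adjusted p = 0.000206), and *Cxcl1*, a neutrophil attractant, fell by 1.27 ± 0.21. Both also fell in the C1q set. *Cxcl16*, a membrane-bound chemokine, was at 120, 176 and 165 CPM in the C1q cells of penis and 31.0 and 42.7 CPM in those of limb (log2 fold-change 2.07, adjusted p = 7.74e-05), and *Ccl12* at 349, 334 and 282 CPM against 152 and 136 CPM (1.17, adjusted p = 0.000164). Of 20 tested, 4 were higher and 3 lower in the whole gate (7.18% and 3.35% of all genes) and 2 higher and 2 lower in the C1q set (4.43% and 2.62%). The remaining large decreases under the rule were *Cryba4* (a crystallin), *Slc39a12* (a zinc transporter), *Zc3h12c*, *Mcoln2* (an endosomal channel), *Fnip2*, *Rab20* (a small GTPase), *Ptgs2* (cyclooxygenase), *Gpx3* (a secreted peroxidase) and *Ednrb* (an endothelin receptor). *Slc39a12* stood at 75.1, 89.1 and 57.0 CPM in penis and 307 and 314 CPM in limb. Of these 9, *Ptgs2*, *Gpx3* and *Ednrb* did not pass in the C1q set, where their log2 fold-changes were -1.92 (adjusted p = 0.0279), -1.12 (adjusted p = 0.0558) and -0.87 (adjusted p = 0.00196).

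Cell division genes were lower in penis. Of 14 genes, 8 fell in the whole gate (median -1.19, beside 3.35% of all genes) and 4 in the C1q set, beside 2.62% (*Mki67*, *Ccnb1*, *Cenpf* and *Ube2c*; median -0.84). *Mki67*, a marker of dividing cells, was at 55.8, 98.4 and 56.0 CPM in penis and 203 and 190 CPM in limb, a fall by 1.42 ± 0.19 on the log2 scale (adjusted p = 0.000281). The cells outside the gate gave a log2 fold-change of -1.46 for the same gene.

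Genes of embryonic timing and imprinted growth genes were lower in 8 of 10 cases in the whole gate (median -2.06, beside 3.35% of all genes) and in 7 of 10 in the C1q set (median -1.78, beside 2.62%). *Igf2bp1*, an RNA-binding protein of fetal cells, was at 3.58, 0.670 and 1.00 CPM in penis and at 69.7 and 75.5 CPM in limb, a fall by 5.27 ± 0.32 (adjusted p = 1.74e-06). It passed the filter on low counts through limb alone and could hardly come out higher, so its values are a description. The noncoding RNA *H19* was at 65.1, 51.6 and 40.0 CPM against 254 and 260 CPM and fell by 2.23 ± 0.14. In the cells outside the gate the log2 fold-change was -4.23 for *Igf2bp1* and -1.82 for *H19*, so the same genes stood lower in penis outside the gate too. The whole list summed to 5285 and 5065 CPM in the other limb cells, against 1517 and 1313 CPM in the gated ones. A contribution of RNA from those other cells was not tested.

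Of 12 immediate early genes, which respond to stress, 4 rose in the whole gate, beside 7.18% of all genes (*Fos*, *Jun*, *Dusp1* and *Hspa1b*; median 0.79) and 5 in the C1q set, beside 4.43%. *Fos* was at 1420.3, 1370.2 and 1758 CPM in penis and 730 and 669 CPM in limb (log2 fold-change 1.15 ± 0.12, adjusted p = 4.51e-05), and in the cells outside the gate its log2 fold-change was 0.77. Such genes respond to dissociation of the tissue, and the part of the preparation was not tested.

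*Runx2*, the gene of the osteoblast factor, did not pass, at 32.9, 21.4 and 32.0 CPM in gated cells of penis and 15.3 and 19.4 CPM in those of limb (log2 fold-change 0.75 ± 0.22, adjusted p = 0.0219). Its penis level was 59.6, 62.5 and 76.3 CPM in C1q-negative cells and 19.4, 3.83 and 11.7 CPM in C1q cells.

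The ligands of CSF1R were at lower levels in gated cells than in the other penis cells. *Csf1* was at 15.7, 6.70 and 8.0 CPM in gated penis cells and 22.0, 23.4 and 26.5 CPM in other penis cells, and *Il34* at 2.86, 2.68 and 2.00 CPM against 7.96, 9.21 and 9.42 CPM. *Csf1* did not pass between the tissues (log2 fold-change -0.82 ± 0.43, adjusted p = 0.168). Osteoclasts, which resorb bone, arise from the same lineage. Of 7 osteoclast genes tested, 0 passed in either direction by edgeR's quasi-likelihood test and by DESeq2, beside 7.18% higher and 3.35% lower of all genes, while at an unadjusted p under 0.05 there were 2 higher and 4 lower. *Acp5*, the tartrate-resistant phosphatase, was at 30.1, 14.7 and 140 CPM in penis and 14.3 and 16 CPM in limb (adjusted p = 0.0389).

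Markers of some other cell types moved with the same contrast, and those of others mostly did not. Of 10 mesenchyme genes, 0 were higher and 1 lower. They summed to 2917 to 3690 CPM in gated penis cells and to 3159 and 2432 CPM in limb. Of 10 endothelial genes, 1 was higher and 0 lower, and of 3 neutrophil genes and 1 lymphoid gene tested, 0 passed. Beside 7.18% higher and 3.35% lower of all genes, keratinocyte genes were higher in 5 of 9 cases, with summed levels of 163 to 531 CPM in gated penis cells against 41.0 and 65.0 CPM in limb, and chondrocyte genes were lower in 8 of 10, muscle genes in 6 of 7 and mast cell genes in 4 of 6. Muscle genes summed to 13.6 to 31.5 CPM in penis and 112 and 162 CPM in limb, with *Myod1*, *Myog* and *Actc1* at 0 in penis. *Cma1*, a mast cell protease gene, was at 0.716, 0.670 and 1.00 CPM in penis and 330 and 143 CPM in limb, where it was found in 12% and 13.6% of gated cells and in 13.1% and 11.3% of the other cells. Haemoglobin and other red blood cell genes summed to 808, 10935 and 3395 CPM in the gated cells of the 3 penis libraries and to 6828 and 9902 CPM in limb, so the groups overlapped. Dendritic genes were higher in 2 of 6 cases (*Cd209a* and *Itgax*) with 0 lower, and glial genes were lower in 1 of 4 (*Ednrb*) with 0 higher. *Ednrb* and *Itgax* are also named elsewhere, by the rule for named genes and in the complement list. The part of these cell types in the other results was not tested. Changes in the other genes of these lists were not read as changes of the gated cells.

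Cells were also counted by small gene lists after thinning each to 2000 UMIs, a depth reached by 366 of 412 gated cells in penis and 1380 of 1530 in limb. The penis cells were more often MHC class II cells, at 7.45% ± 0.751 (SD, n = 3) against 1.16% ± 0.148 (SD, n = 2), and monocyte-gene cells, at 21.6% ± 2.34 against 10.1% ± 0.0892. They were less often cells with resident genes (*Lyve1*, *Folr2*, *Cd163*, *F13a1*), at 7.86% ± 1.02 against 27.9% ± 0.880, and dividing cells, at 4.59% ± 0.556 against 16.7% ± 0.304. The 4 resident genes of this count include *Lyve1* and *F13a1*, the members of the longer resident list that fell over the whole gate. All 18 genes of that list summed to 5096, 4652 and 4836 CPM in gated penis cells and 5052 and 5206 CPM in limb, and in the C1q set to 7457, 6416 and 6819 CPM against 5413 and 5522 CPM. Osteoclast-gene cells were 0.838% ± 0.158 against 0.15% ± 0.212, or 3 penis cells, and at 1000 or 4000 UMIs the exact permutation p was 1 and 0.7. No penis library overlapped a limb library in any list at 2000 UMIs, and for these 5 the exact permutation test gave p = 0.1, the smallest possible, or 0.12 after adjustment over 6 lists. Cells with interferon genes were 4.41% ± 2.10 against 1.43% ± 0.749 (exact permutation p = 0.2, adjusted p = 0.2). Of the 366 penis cells, 215 (58.7%) were in none of the lists. No cell had both monocyte and resident genes, while 10 of the 17 interferon cells were monocyte-gene cells. Counted in the C1q set alone, the monocyte-gene share was lower in penis than in limb by 0.984 percentage points. In the C1q-negative set it was 49.1%, 49.0% and 39.0% in penis and 46.9% and 63.0% in limb, so within either set the libraries of the tissues overlapped.

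**Figure D5:**
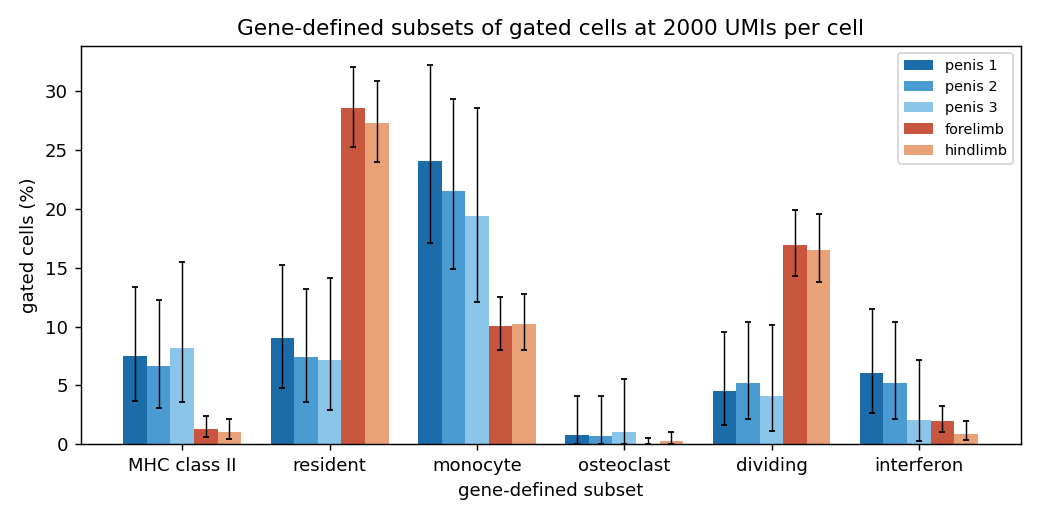
Share of gated cells (%, vertical axis) that held the genes of each list (horizontal axis) at 2000 UMIs per cell, with a bar per library and exact 95% binomial intervals that cover counting error only. The penis bars lie above the limb bars for MHC class II and monocyte genes and below them for resident and dividing genes.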

How the data were processed

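The authors dissociated the tissues, prepared 10X Genomics 3′ v3.1 libraries and, per the labels, made UMI tables with Cell Ranger 7.0.0 on mm10. What the authors deposited is an unnormalized matrix of UMI counts for each library. Whether introns were counted is not given in the sources used here. Penis cells were kept at 500 to 6000 genes and at most 5% mitochondrial UMIs, limb cells at 100 to 9000 genes and at most 10%. Members and gene lists were chosen with earlier results of these data known. UMIs were summed per library and tested with edgeR 4.0.16 (TMM, filterByExpr, quasi-likelihood test, Benjamini-Hochberg adjustment). On simulated counts of all gated cells, 100% of 99 genes changed by a log2 of 2 were recovered. All genes were drawn with the same dispersion (0.0111). Smaller changes and genes with more spread between libraries were not simulated, so the share recovered does not measure power for them. The 12 largest differences per direction had to reach 50 CPM, show no overlap and be 4 times the level of other cells. Leading and variable genes were ranked by fixed rules. Depth per library is given above, and binomial intervals cover counting error only. No doublet caller was run. DESeq2 1.42.0 and other choices were alternatives. Results that need items withheld from the text are not reported here.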

Additional observations from a re-analysis of the deposited data

How the results depend on the processing

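The differences below are penis against limb. The count of genes higher over all gated cells, 785 of 10939 tested, was 713 with DESeq2 and 723 with upper quartile normalization, both of 10939. Other settings also changed the number of genes tested, so their counts are not directly comparable. The count was 493 of 22460 with no filter on low counts and 442 of 9708 with at least 5 gate genes. It was 490 of 9284 with the gate applied after thinning and 441 of 5107 with each cell thinned. In the C1q set it was 445 of 10040 and in the C1q-negative set 386 of 6741. The count of lower genes, 367, was 308 with DESeq2 and 384 with upper quartile normalization. It was 191 of 5107 with each cell thinned and 204 of 6741 in the C1q-negative set. Without 1 library the higher count ranged from 391 (without hindlimb) to 762 and the lower count from 182 (without forelimb) to 370. In the C1q set these ranges were 94 to 381 and 91 to 252, with both limb libraries at the low end (131 and 91 without forelimb, 94 and 97 without hindlimb). The limb library left in such a fit was assumed to vary like the penis libraries, and the cause of the lower counts was not tested. The difference in the share of gated cells, -0.984 percentage points, was -1.49 with the complexity filter, which the main analysis left out. It was -1.51 with at least 5 gate genes, and it was reversed for C1q-negative cells (0.546). The difference in monocyte-gene cells was reversed with at least 5 gate genes (-0.737) and in the C1q set (-0.984). The other 5 lists kept their direction under the alternatives run, but the size of the differences depended on depth. For dividing cells the difference was -12.1 percentage points at 2000 UMIs, -6.50 at 1000, -19.5 at 4000 and -22.4 without thinning. For cells with resident genes these were -20.1, -11.9, -25.2 and -27.1, and for cells with interferon genes 2.98, 0.269, 3.67 and 7.65. Of 76 genes that passed the limits, 23 no longer passed in the C1q set and 17 with at least 5 gate genes. A further 12 kept their sign but no longer passed in the C1q-negative set, counted on its own. In the C1q-negative set 4 of the 76 were reversed in sign, *Marco* (-0.95), *Zc3h12c* (0.72), *Cxcl1* (0.80) and *Rab20* (0.22). None of these 4 passed there, with adjusted p of 0.518, 0.158, 0.404 and 0.781 in edgeR's quasi-likelihood test. *Marco* was at 0 CPM in forelimb and 101 CPM in hindlimb in that set, and 1 hindlimb cell held 38 of its 42 UMIs. The sign was also reversed for *Cd36* (3.56), which had not passed over the whole gate. The C1q sets, the mast-gene filter and the fits of the C1q set were added after seeing the data. No paired analysis was possible because the penis and limb libraries came from different animals of different ages. With 2 limb libraries no exact test could pass 0.05.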

Other observations

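Of 9 complement genes other than C1q that were tested, 4 were higher in the gated cells of penis (*C3*, *Cfp*, *Itgam* and *Itgax*), beside 7.18% of all genes, and 1 of 7 (*Cfp*, properdin) in the C1q set, beside 4.43%. *C3*, the central complement component, was at 67.3, 64.3 and 67.0 CPM against 13.3 and 16 CPM over the whole gate and at 11.9, 12.4 and 13.1 CPM against 8.60 and 11.0 CPM in the C1q set. *Fcgr2b*, the inhibitory Fc receptor, was at 161, 77.0 and 125 CPM in gated penis cells and 48.9 and 47.8 CPM in limb (log2 fold-change 1.35 ± 0.22, adjusted p = 0.000993), 1 of 5 Fc receptors tested, beside 7.18% of all genes. *Cd36*, a lipid scavenger receptor, did not pass over the whole gate but was higher in the C1q-negative set. *Tmem119*, best known from microglia, was at 42.0, 43.0 and 36.5 CPM in the C1q cells of penis and 15.8 and 16.7 CPM in those of limb (log2 fold-change 1.34, adjusted p = 0.00069), while other penis cells held 47.5, 43.6 and 42.2 CPM, so a contribution of their RNA was not tested. *Il1b*, a pyrogenic cytokine gene, was at 595, 438 and 392 CPM over all gated penis cells and 218 and 182 CPM in limb, and its penis level was 1199, 1041 and 941 CPM in C1q-negative cells and 290, 180 and 140 CPM in C1q cells.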
